A study of Caenorhabditis elegans with 19 samples.

Results

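The effect of depleting RPOA-2 was set against the effect of depleting GRWD-1 in dissected gonads of the nematode Caenorhabditis elegans. RPOA-2 is a core subunit of RNA polymerase I, and GRWD-1 is a chaperone of ribosome assembly. The comparison uses every library of the 2 strains concerned, chosen by their labels, which is 14 of the 19 libraries of the series. These are 4 libraries of RPOA-2 auxin, 4 of RPOA-2 ethanol, 3 of GRWD-1 auxin and 3 of GRWD-1 ethanol. Strain ESC332 carries a degron on RPOA-2 and strain ESC422 carries one on GRWD-1, a tag that lets the plant hormone auxin trigger breakdown of the protein. Late L4 hermaphrodites spent 18 h on plates that held either 1 mM auxin or ethanol alone, its solvent, and their gonads were dissected as young adults. Each replicate pooled 20 gonads. The tissue in which the auxin receptor is made and the other alleles of the strains are not given in the sources used here. No group is an auxin-treated strain without a degron, so for a change seen in both strains the loss of the protein and auxin itself cannot be told apart.

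Ribosome synthesis starts when RNA polymerase I transcribes one long precursor that holds the 18S, 5.8S and 26S rRNAs. The mature rRNAs are separated in it by internal spacers (ITS1 before and ITS2 after 5.8S) and flanked by external spacers (5ETS and 3ETS), which are cut out and degraded, so spacer reads stand for precursor that is not yet processed. Assembly factors then fold and trim the small subunit around 18S and the large subunit around 26S and 5.8S. In yeast the counterpart of GRWD-1 escorts ribosomal protein L3 into the large subunit. The adult gonad is a large producer of ribosomes, which are loaded into the growing oocytes. The comparison asks which transcripts respond in the same way to loss of rRNA transcription and to loss of ribosome assembly, and which respond to 1 of them.

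The protein-coding libraries held 2422766 to 8012912 counts for RPOA-2 auxin, 1582308 to 4336988 for RPOA-2 ethanol, 4229644 to 8526501 for GRWD-1 auxin and 2031037 to 2993987 for GRWD-1 ethanol. A count of 3 equals 0.352 to 1.90 CPM (counts relative to the scaled library size), and such floors cover counting error only, since the libraries hold PCR reads without molecular identifiers. Germline markers summed to 4754 to 5956 CPM in RPOA-2 auxin, 4032 to 5527 in RPOA-2 ethanol, 4591 to 5569 in GRWD-1 auxin and 5475 to 5838 in GRWD-1 ethanol, and all 9 of them had counts in all 14 libraries. Sperm markers summed to at most 47.7 CPM in any library. Intestinal markers, which include 3 yolk protein genes, ranged from 663 to 21788 CPM in RPOA-2 auxin, from 1664 to 38843 in RPOA-2 ethanol, from 447 to 1796 in GRWD-1 auxin and from 777 to 4605 in GRWD-1 ethanol. RPOA-2 ethanol replicate 2 stands apart, with the highest sums of intestinal markers, of muscle markers (2300 CPM) and of hypodermal markers (1140 CPM). Results that rest on that library are given with and without it. The labels do not say whether replicates came from separate cultures, so p-values measure the spread between these samples. In RNA of whole gonads, fewer cells of a type and less RNA per cell cannot be told apart.

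Transcripts of the tagged genes did not pass the test in their own strains. rpoa-2 averaged 258 ± 47.0 CPM in RPOA-2 auxin and 211 ± 20.5 CPM in RPOA-2 ethanol (SD, n = 4 each), with an adjusted p of 0.277 in edgeR's quasi-likelihood test. grwd-1 averaged 401 ± 48.8 CPM in GRWD-1 auxin and 326 ± 55.8 CPM in GRWD-1 ethanol (SD, n = 3 each), with an adjusted p of 0.39 in edgeR. Degrons act on the protein, which was not measured here.

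The spacers of the rRNA precursor had different changes after the 2 depletions. After RPOA-2 depletion the 5ETS, ITS1 and 3ETS spacers fell, to geometric means 10.1-fold, 11-fold and 8.43-fold lower than with ethanol per protein-coding count and 4.1-fold, 4.46-fold and 3.42-fold lower per count of all RNA, whereas after GRWD-1 depletion none of these 3 passed the test per protein-coding count. The direction in GRWD-1 depends on the scale, as 5ETS and 3ETS rose when scaled to total counts, while the difference between the strains passed on both scales. ITS2, the spacer that is cut out late during assembly of the large subunit, and 26S rRNA fell after GRWD-1 depletion, and for neither did the difference from RPOA-2 pass. In the RPOA-2 fit without ethanol replicate 2 both were called lower as well. Spacers and rRNA were counted in 3 replicates of each group, as the fractional counts used here do not cover replicate 4 of the RPOA-2 strain, and they are given per 1000 protein-coding counts. The RPOA-2 libraries counted carry library numbers of another range than the GRWD-1 libraries, so here strain and number range cannot be told apart.

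The 5ETS, the first stretch to be transcribed, stood at 0.220, 0.272 and 0.205 in RPOA-2 auxin, against 3.05, 1.74 and 2.40 in RPOA-2 ethanol. It stood at 3.21, 2.95 and 2.43 in GRWD-1 auxin, against 3.47, 3.44 and 3.41 in GRWD-1 ethanol. The RPOA-2 auxin libraries lie far under their ethanol libraries, and the GRWD-1 auxin libraries lie close under their ethanol libraries. By edgeR it changed by log2 -3.40 ± 0.258 (SE; adjusted p 0.0015) after RPOA-2 depletion and -0.31 ± 0.182 (adjusted p 0.456) after GRWD-1 depletion. Tested directly, the 2 changes differed by -3.06 ± 0.358 (adjusted p 0.00442 in edgeR), RPOA-2 minus GRWD-1. Scaled to total counts, the RPOA-2 changes were -2.05 for 5ETS, -2.19 for ITS1 and -1.75 for 3ETS, all still called, and the differences were -3.10, -2.72 and -2.70. On that scale the GRWD-1 changes were 1.05 for 5ETS (adjusted p 0.00718), 0.53 for ITS1 (adjusted p 0.0614) and 0.95 for 3ETS (adjusted p 0.0151), by edgeR. With the replicate block and protein-coding scaling ITS1 fell in GRWD-1 by log2 0.81 (adjusted p 0.00146).

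ITS1, between 18S and 5.8S, stood at 1.01, 1.12 and 1.23 in RPOA-2 auxin, against 16.9, 9.43 and 11.7 in RPOA-2 ethanol. In the GRWD-1 strain it stood at 12.3, 8.79 and 11.2 in auxin, against 21.2, 13.8 and 20.0 in ethanol. In both strains every auxin library lay under every ethanol library, with the wider gap in RPOA-2. ITS1 had a log2 change of -3.53 ± 0.311 (adjusted p 0.0022) in RPOA-2 and -0.82 ± 0.205 (adjusted p 0.0889) in GRWD-1, and the difference was -2.68 ± 0.388 (adjusted p 0.0212 in edgeR). The 3ETS, last to be transcribed, had log2 changes of -3.11 ± 0.247 (adjusted p 0.0015) in RPOA-2 and -0.42 ± 0.215 (adjusted p 0.386) in GRWD-1, with a difference of -2.65 ± 0.387 (adjusted p 0.0212 in edgeR). The difference for 5ETS lost its call without RPOA-2 auxin replicate 3 (adjusted p 0.0999). The difference for 3ETS lost its call without RPOA-2 auxin replicates 1 or 3, without RPOA-2 ethanol replicates 1 or 3 or without GRWD-1 ethanol replicate 2 (adjusted p 0.0622 to 0.348). The difference for ITS1 had adjusted p of 0.05 to 0.348 without each library other than RPOA-2 ethanol replicate 2 and GRWD-1 auxin replicate 2.

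ITS2 behaved otherwise. It stood at 36.7, 38.0 and 45.7 in RPOA-2 auxin, against 177.5, 136 and 167 in RPOA-2 ethanol, and at 88.9, 53.1 and 106 in GRWD-1 auxin, against 278.5, 153 and 399 in GRWD-1 ethanol. Libraries of both strains were lower with auxin, without overlap. ITS2 had a log2 change of -2.02 ± 0.432 (adjusted p 0.0828) in RPOA-2 and -1.80 ± 0.343 (adjusted p 0.0397) in GRWD-1, and the difference of -0.18 ± 0.516 did not pass (adjusted p 1 in edgeR). Scaled to total counts instead, the changes were -0.70 in RPOA-2 (adjusted p 0.0132) and -0.46 in GRWD-1 (adjusted p 0.0652). Without RPOA-2 ethanol replicate 2 the RPOA-2 change per protein-coding count was -2.15 (adjusted p 0.000687 in edgeR). Leaving out any other RPOA-2 library gave no call. The GRWD-1 call was lost without any 1 of the 6 libraries (-1.37 to -2.05, adjusted p 0.0721 to 0.144), and with the replicate block it was -1.75 (adjusted p 4.01e-05). The ratio of ITS2 to ITS1 counts was 36.1, 33.9 and 37.1 in RPOA-2 auxin, against 10.5, 14.4 and 14.3 in RPOA-2 ethanol. It was 7.25, 6.04 and 9.49 in GRWD-1 auxin, against 13.1, 11.1 and 19.9 in GRWD-1 ethanol. The ratio was thus higher with auxin in every RPOA-2 library and lower with auxin in every GRWD-1 library. An exact two-sided permutation test of 3 against 3 cannot go below 0.1, which both strains reached. Regrouping the libraries within both strains gave 400 arrangements and an exact p of 0.005, the smallest they can give, for the log2 difference of 2.40. That test asks whether neither strain changed, and the difference between the strains was not tested by it.

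Mature rRNA was lower relative to protein-coding counts in both strains. The 18S, 5.8S and 26S rRNAs took 73.5% ± 1.35 of all counts in RPOA-2 auxin and 83.2% ± 0.309 in RPOA-2 ethanol, and 66.4% ± 4.81 in GRWD-1 auxin and 79.7% ± 0.368 in GRWD-1 ethanol (SD, n = 3 each). 26S counts per 1000 protein-coding counts averaged 1881 ± 179 in RPOA-2 auxin and 5038 ± 175 in RPOA-2 ethanol, a log2 change of -1.43 ± 1.08 (adjusted p 0.609 in edgeR). They averaged 1093 ± 164 in GRWD-1 auxin and 4379 ± 497 in GRWD-1 ethanol, a log2 change of -2.06 ± 0.187 (adjusted p 0.00262 in edgeR). Scaled to all counts other than rRNA the GRWD-1 change was -1.56, and to total counts it was -0.72 (adjusted p 0.000167). The direct difference for 26S, RPOA-2 minus GRWD-1, was 0.66 ± 0.5 (adjusted p 1 in edgeR). 18S had log2 changes of -1.54 ± 1.11 (adjusted p 0.59) in RPOA-2 and -1.19 ± 0.275 (adjusted p 0.0736, or 0.000765 with the replicate block) in GRWD-1, both by edgeR. Scaled to total counts 18S was at 0.10 in GRWD-1 (adjusted p 0.434). Without RPOA-2 ethanol replicate 2 the RPOA-2 changes were -1.49 for 26S (adjusted p 0.0148) and -1.59 for 18S (adjusted p 0.00741), by edgeR. Leaving out any other RPOA-2 library gave no call for either. Yet RPOA-2 libraries did not overlap, with 26S at 1985, 1675 and 1983 in auxin, against 5064, 4851 and 5198 in ethanol. For 18S they stood at 1881, 1878 and 2180 in auxin, against 5720, 5515 and 5842 in ethanol. The edgeR SEs of these 2 RPOA-2 changes are wider than the spread of those libraries. Their adjusted p therefore does not measure that spread alone.

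The ratio of large-subunit to small-subunit rRNA was lower with auxin in GRWD-1. The ratio of 26S to 18S counts was 1.06, 0.892 and 0.909 in RPOA-2 auxin, against 0.885, 0.880 and 0.890 in RPOA-2 ethanol. It was 0.50, 0.834 and 0.528 in GRWD-1 auxin, against 0.857, 1.19 and 1.16 in GRWD-1 ethanol. GRWD-1 auxin libraries all lay under their ethanol libraries, with auxin replicate 2 close to the lowest of them, and RPOA-2 auxin libraries lay slightly above theirs. The log2 difference of 0.91 had an exact p of 0.005 over the 400 regroupings, the smallest they can give, which again asks whether neither strain changed and is no test of the difference between strains. Per 1000 counts of 18S rRNA rather than of mRNA, the 5ETS was at 0.119 ± 0.0254 in RPOA-2 auxin and 0.42 ± 0.109 in RPOA-2 ethanol, and at 1.72 ± 0.879 in GRWD-1 auxin and 0.847 ± 0.187 in GRWD-1 ethanol (SD, n = 3 each). On this scale the RPOA-2 auxin libraries were all lower and the GRWD-1 auxin libraries all higher than their ethanol libraries, as with total counts.

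**Figure D1:**
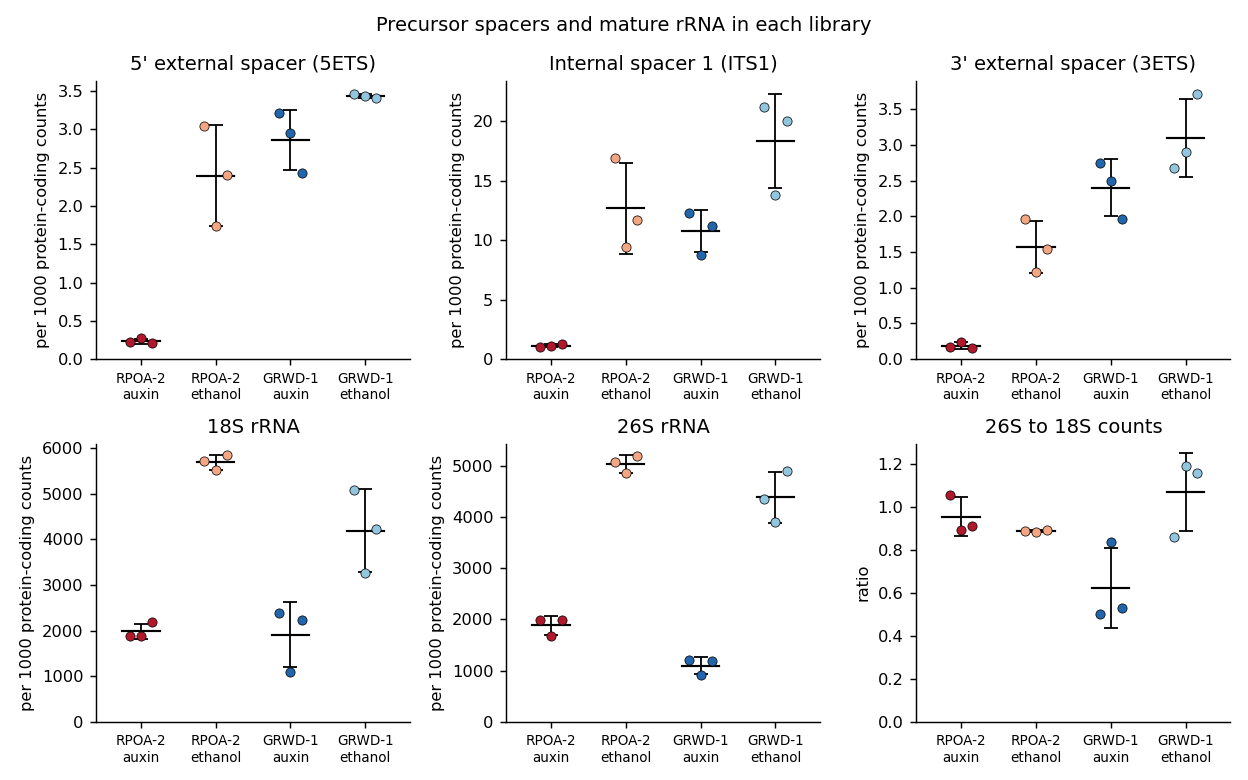
Spacer and rRNA counts per 1000 protein-coding counts and the ratio of 26S to 18S counts, for each library (points) of the 4 groups, with the mean (line) and SD (bar) of n = 3. RPOA-2 auxin libraries sit near 0 for the 3 spacers, GRWD-1 auxin libraries sit close to their ethanol libraries there, and 26S to 18S in GRWD-1 is 0.50 to 0.834 with auxin, under its ethanol libraries.

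Across protein-coding genes some transcripts were called in both strains in the same direction, and 1 gene passed the direct test of a difference. After RPOA-2 depletion 202 genes rose and 96 fell of 7881 tested, which is 3.78% called (2.56% higher and 1.22% lower). After GRWD-1 depletion 84 rose and 103 fell of 6948 tested, which is 2.69% called (1.21% higher and 1.48% lower). Here and below a gene is called at an adjusted p under 0.05 in edgeR's quasi-likelihood test with Benjamini-Hochberg adjustment over all genes tested in that strain. The strains share no library, and 6847 genes were tested in both.

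Of these, 64 genes (0.935%) were called in the same direction in both strains, 25 higher and 39 lower, and 0 were called in opposite directions. The 64 are 21.8% of the 294 RPOA-2 calls and 34.2% of the 187 GRWD-1 calls among genes tested in both. Of the RPOA-2 falls 41.5% were also called in GRWD-1, and of the RPOA-2 rises 12.5%, a contrast that was not tested. Genes called in RPOA-2 had the same sign in GRWD-1 in 275 of 294 cases (93.5%), and genes called in GRWD-1 had the same sign in RPOA-2 in 179 of 187 cases (95.7%). Over all genes tested in both it was 67.4%. Spearman's rho between the log2 changes of those genes was 0.48 and Pearson's r was 0.49, as a description, since genes are not independent replicates and each strain's changes share libraries and depth.

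Counts of calls depended on single libraries. The RPOA-2 count fell to 48 without ethanol replicate 1, 7 without ethanol replicate 3, 66 without ethanol replicate 4, 40 without auxin replicate 1, 28 without auxin replicate 2 and 28 without auxin replicate 3. The GRWD-1 count fell to between 26 and 78 without each library other than auxin replicate 2. The shared count fell to between 5 and 31 without each of these 11 libraries. Without RPOA-2 ethanol replicate 2, the library with the highest sums of intestinal markers, RPOA-2 had 106 rises and 111 falls, and 64 genes were shared, of which 53 were the same genes. Same-numbered GRWD-1 libraries deviate together, and once that number was fitted as a block GRWD-1 had 499 rises and 476 falls and 156 genes were shared with the blocked RPOA-2 calls. With total counts in place of TMM scaling 57.6% of 271 GRWD-1 calls were higher, against 44.9% here, and with DESeq2 55.9% of 603 RPOA-2 calls were higher, against 67.8% here.

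**Figure D2:**
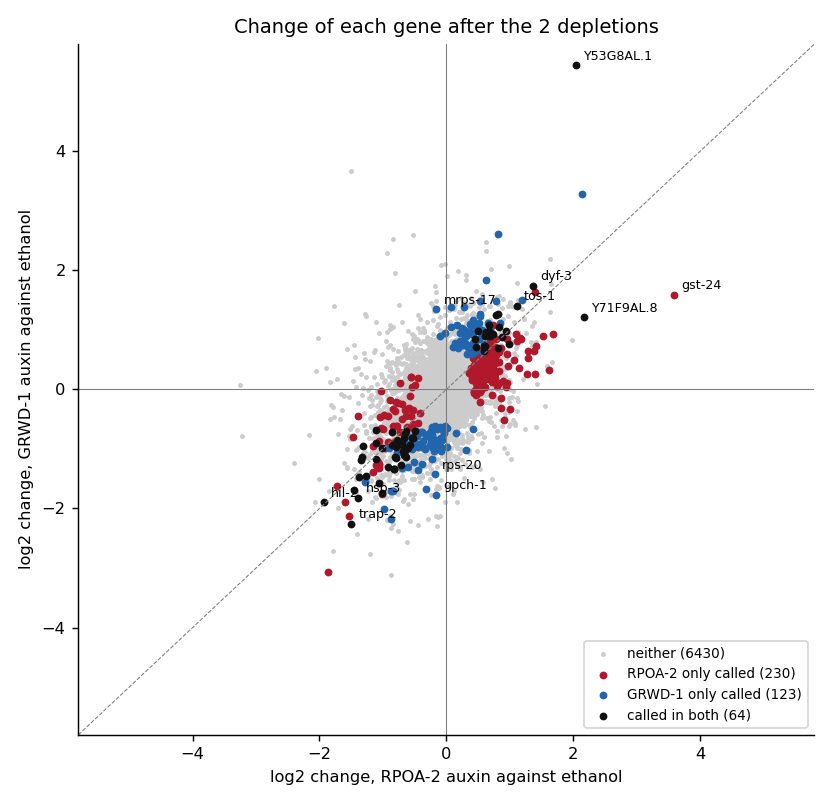
Log2 change of each of 6847 genes, RPOA-2 auxin against ethanol (x axis) and GRWD-1 auxin against ethanol (y axis), coloured by the strains in which it was called; the dashed line marks equal change and 1 gene lies outside the axes. The 64 genes called in both lie in the lower left and upper right quadrants, and gpch-1 lies near 0 on the x axis and at -1.77 on the y axis.

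The 64 shared genes had a median absolute log2 change of 0.80 in RPOA-2 and 0.97 in GRWD-1, and 53 of them had the larger estimate in GRWD-1. Over all genes called in a strain that median was 0.668 in RPOA-2 and 0.956 in GRWD-1. Larger GRWD-1 estimates among called genes are thus not particular to the shared ones. In both strains all 64 had auxin libraries entirely above or entirely below their ethanol libraries, as did 12.9% of all genes tested in RPOA-2 and 24.6% in GRWD-1. The 64 were picked by calls from these same libraries, so their separation follows largely from that choice and is no further support. Of the 64, 3 had an unadjusted p under 0.05 for a difference between the changes. They lay on all 6 nuclear chromosomes, with 13 on I, 8 on II, 13 on III, 16 on IV, 9 on V and 5 on X. For 17 of them an opposite-strand gene overlaps, among them crt-1, vab-10, fln-1 and Y71F9AL.8, and the strand setting of the counting is not given in the sources used here, so their reads and antisense reads cannot be told apart. Among the 12 largest shared falls and 12 largest shared rises, ranked by the smaller of the 2 changes, 0 changed sign in any fit that left out 1 library. Few of them were called in each of these fits, however: 3 of 24 in all 8 RPOA-2 fits and 5 of 24 in all 6 GRWD-1 fits. Over all genes taken by the naming rule, 5 of 54 RPOA-2 calls and 14 of 66 GRWD-1 calls were made in every such fit.

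A number of genes of the secretory pathway fell in both strains. The endoplasmic reticulum (ER) takes up secreted and membrane proteins through a translocon, adds sugar chains by oligosaccharyltransferase, and folds them with Hsp70, disulfide isomerases and lectin chaperones. Of 24 listed ER chaperones and folding enzymes, 22 were tested in RPOA-2, where 8 fell and 0 rose, and 21 were tested in GRWD-1, where 6 fell and 0 rose, 6 of them shared. With the replicate block 14 fell in GRWD-1. The median log2 change of the list was -0.49 in RPOA-2 and -0.63 in GRWD-1, against -0.015 and -0.002 over all genes tested. For this list and the next, the share of all genes that fell was 1.22% in RPOA-2 and 1.48% in GRWD-1.

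hsp-3, which encodes an ER Hsp70 (BiP), lies on chromosome X from 6089028 to 6092124, minus strand, in WBcel235. It had 217, 102, 179 and 298 CPM in RPOA-2 auxin, against 475, 540, 494 and 565 CPM in RPOA-2 ethanol. In GRWD-1 it had 84.5, 61.6 and 137 CPM in auxin, against 351, 318 and 326 CPM in ethanol. All auxin libraries lie well under all ethanol libraries of their strain. The log2 change was -1.39 ± 0.251 (adjusted p 0.02) in RPOA-2 and -1.82 ± 0.243 (adjusted p 0.00458) in GRWD-1, by edgeR, and the difference of 0.41 ± 0.392 did not pass (adjusted p 1). The RPOA-2 call was lost without ethanol replicates 1, 3 or 4 or auxin replicates 1 or 3, at log2 changes of -1.33 to -1.46.

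pdi-2, a protein disulfide isomerase, had 76.9, 36.2, 103 and 113 CPM in RPOA-2 auxin, against 208, 260, 215 and 215 CPM in RPOA-2 ethanol. It had 38.5, 27.9 and 66.5 CPM in GRWD-1 auxin, against 132, 120 and 173 CPM in GRWD-1 ethanol. Again no libraries overlapped. Its log2 changes were -1.46 ± 0.28 in RPOA-2 (adjusted p 0.0208) and -1.69 ± 0.28 in GRWD-1 (adjusted p 0.0106), by edgeR. The disulfide isomerases pdi-3 and pdi-6, the second BiP gene hsp-4 and the calreticulin gene crt-1 fell in both strains as well, with log2 changes of -0.57 to -1.27 in RPOA-2 and -0.92 to -1.45 in GRWD-1. hsp-4, a standard reporter of the unfolded protein response in worms, thus had 526, 446, 497 and 471 CPM in RPOA-2 auxin, against 886, 568, 672 and 759 CPM in ethanol, with log2 change -0.57 (adjusted p 0.0407 in edgeR).

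Of 18 genes for the translocon, signal peptidase and oligosaccharyltransferase, 6 fell and 1 rose in RPOA-2 and 7 fell and 0 rose in GRWD-1, with 6 falls shared. All 4 subunits of the translocon-associated protein complex, trap-1, trap-2, trap-3 and trap-4, were among the 6, with the translocon channel gene sec-61.A and the oligosaccharyltransferase gene ostb-1. trap-2 (chromosome X from 767023 to 768069, minus strand, WBcel235) had 31.0, 7.79, 24.7 and 22.7 CPM in RPOA-2 auxin, against 51.9, 74.1, 52.8 and 62.5 CPM in RPOA-2 ethanol. It had 13, 4.02 and 14.9 CPM in GRWD-1 auxin, against 56.5, 38.5 and 54.7 CPM in GRWD-1 ethanol. Auxin replicate 2 was the lowest library in both strains. The log2 change was -1.50 ± 0.343 (adjusted p 0.0382) in RPOA-2 and -2.25 ± 0.412 (adjusted p 0.0163) in GRWD-1, by edgeR; the RPOA-2 call was lost without any 1 library other than auxin replicate 2, and the GRWD-1 call without ethanol replicates 1 or 3. The other 3 trap genes were tighter. trap-1 had 187, 136, 169 and 137 CPM in RPOA-2 auxin, against 287, 253, 285 and 264 CPM in ethanol (log2 change -0.79 ± 0.117, adjusted p 0.0117 in edgeR), and 121, 152 and 110 CPM in GRWD-1 auxin, against 219, 286 and 224 CPM in ethanol (-0.93 ± 0.173, adjusted p 0.018).

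Genes of the secretory pathway are also active in the intestine, whose markers differed widely between libraries. None of the 8 intestinal markers tested in RPOA-2 and none of the 5 tested in GRWD-1 was called (3 of 5 fell in GRWD-1 with the replicate block), and their median log2 changes were -1.25 in RPOA-2 (-0.41 without ethanol replicate 2) and -1.08 in GRWD-1, with overlapping sums between auxin and ethanol. The part of intestinal RNA in these results was not tested over all libraries. Without RPOA-2 ethanol replicate 2 the RPOA-2 fit had 8 falling ER chaperones, with a list median of -0.59, and 5 falling translocon genes. That fit keeps replicate 4 of both groups, with intestinal markers at 21788 CPM in auxin and 20821 CPM in ethanol. The 5 listed sensors of ER stress had 1 call in RPOA-2, the kinase gene pek-1, with log2 change -0.80 ± 0.176 (adjusted p 0.0341 in edgeR), and 0 in GRWD-1. The call of pek-1 was lost in 7 of the 8 fits that left out 1 library.

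Of 14 cytosolic and mitochondrial chaperones tested in each strain, 1 fell in RPOA-2 and 3 fell in GRWD-1 (7 with the replicate block), and 0 rose. Over all genes 1.22% fell in RPOA-2 and 1.48% in GRWD-1. hsp-1, the constitutive cytosolic Hsp70, fell in both, with 3347, 2834, 2624 and 3789 CPM in RPOA-2 auxin, against 5901, 4819, 5958 and 6233 CPM in ethanol (log2 change -0.86 ± 0.177, adjusted p 0.0273 in edgeR). It had 3066, 4394 and 2961 CPM in GRWD-1 auxin, against 5887, 7204 and 6727 CPM in ethanol (-0.93 ± 0.187, adjusted p 0.0257 in edgeR). The Hsp90 gene hsp-90 and the mitochondrial chaperonin gene hsp-60 were called in GRWD-1 only, at -0.92 and -1.23, and had -0.61 (adjusted p 0.102) and -0.51 (adjusted p 0.143) in RPOA-2, by edgeR. For neither did the difference pass (adjusted p 1).

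**Figure D3:**
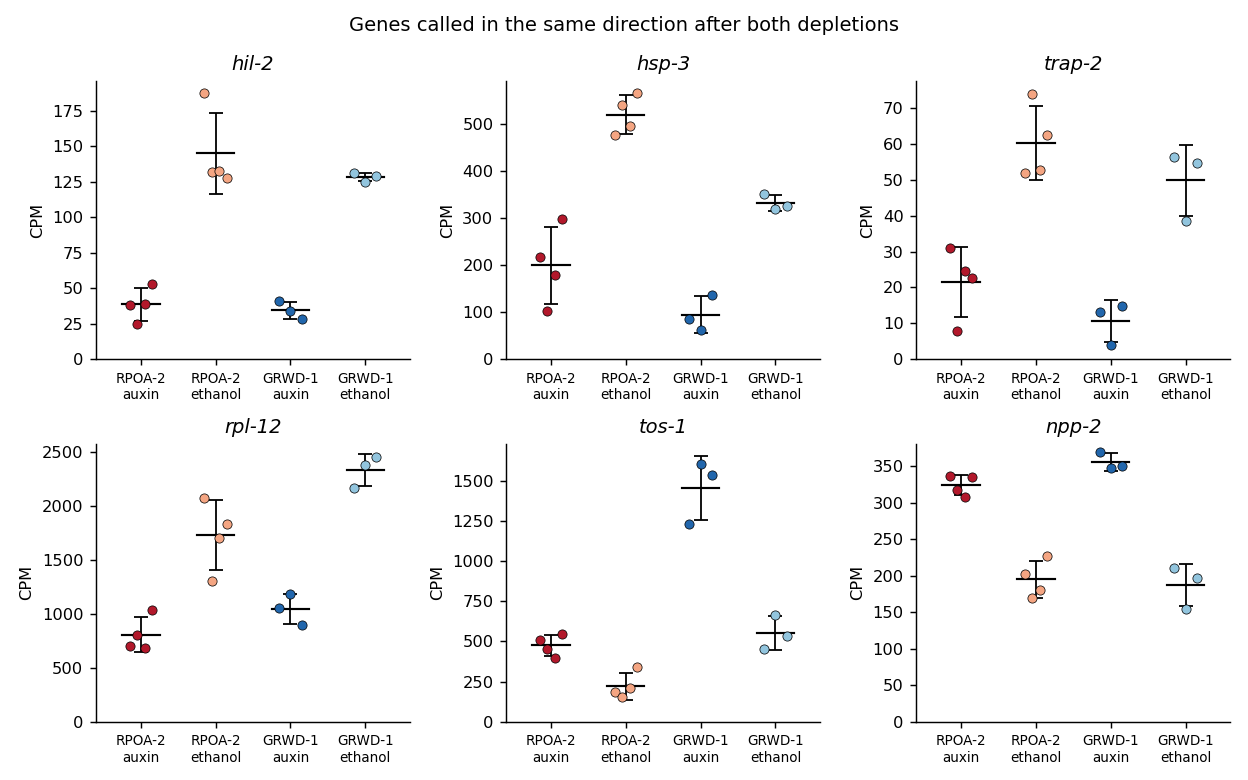
CPM of 6 genes called in both strains, for each library (points) of the 4 groups, with the mean (line) and SD (bar) of n = 4 for RPOA-2 and n = 3 for GRWD-1. hil-2, hsp-3, trap-2 and rpl-12 are lower with auxin in both strains and tos-1 and npp-2 higher, with no overlap between auxin and ethanol libraries of a strain.

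Of the linker histones, which bind between nucleosomes, hil-2 and hil-5 fell in both strains. Among the 39 genes that fell in both, hil-2 had the largest fall in RPOA-2 and was second to trap-2 in GRWD-1. hil-2 (chromosome IV from 6294240 to 6295217, plus strand, WBcel235) had 38.0, 24.6, 38.5 and 53.1 CPM in RPOA-2 auxin, against 188, 132, 133 and 128 CPM in RPOA-2 ethanol. It had 40.6, 34.2 and 28.6 CPM in GRWD-1 auxin, against 131, 125 and 129 CPM in GRWD-1 ethanol. Every auxin library was below every ethanol library in both strains. The log2 change was -1.93 ± 0.22 (adjusted p 0.00393) in RPOA-2 and -1.89 ± 0.175 (adjusted p 0.00108) in GRWD-1, by edgeR, and it was called in each fit that left out 1 library. The difference was -0.05 ± 0.301 (adjusted p 1). hil-5 had 88.5, 96.7, 86.5 and 113 CPM in RPOA-2 auxin, against 234, 240, 265 and 216 CPM in ethanol, and 120, 109 and 80.0 CPM in GRWD-1 auxin, against 149, 198 and 253 CPM in ethanol. It fell by log2 1.32 ± 0.111 in RPOA-2 (adjusted p 0.000556) and by 0.96 ± 0.212 in GRWD-1 (adjusted p 0.0384), by edgeR, and its GRWD-1 call was lost without each library other than ethanol replicate 1. The other 4 linker histone genes tested in both strains were not called, among them hil-4, with 209 ± 55.6 CPM in RPOA-2 auxin and 266 ± 56.8 CPM in ethanol, and 300 ± 32.0 CPM in GRWD-1 auxin and 340 ± 74.7 CPM in ethanol.

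Of 40 core histone genes tested in RPOA-2, 2 rose and 0 fell, and of 36 tested in GRWD-1, 1 fell and 0 rose (7 fell and 1 rose with the replicate block). Among all genes 2.56% rose in RPOA-2 and 1.48% fell in GRWD-1, so the main counts are near those shares. his-67 had 2233, 2597, 2670 and 2033 CPM in RPOA-2 auxin, against 1260, 1406, 1400 and 1414 CPM in ethanol (log2 change 0.80 ± 0.131, adjusted p 0.0176 in edgeR). In GRWD-1 it had 1030, 474 and 1743 CPM in auxin, against a mean of 1041 CPM in ethanol (0.06 ± 0.399, adjusted p 0.964). Its neighbour his-68 rose by log2 0.72 in RPOA-2 (adjusted p 0.0197) and had -0.09 in GRWD-1 (adjusted p 0.85), by edgeR. The unadjusted p of the difference was 0.135 for his-67 and 0.0103 for his-68, and neither passed after adjustment. Core histones are nearly identical multicopy genes, and how the counting split them is uncertain.

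Cytoplasmic ribosomal protein genes encode the proteins that join rRNA in the subunits. Of 49 tested large-subunit genes 4 fell in both strains, rpl-1, rpl-7A, rpl-12 and rpl-26, and these were the only RPOA-2 calls of the list. Among all genes 1.22% were called lower in RPOA-2 and 1.48% in GRWD-1. The list median was -0.19 in RPOA-2 and 0.04 in GRWD-1. It ranged from -0.05 to 0.12 across alternatives in GRWD-1, so it had no fixed sign there. rpl-12 had 704, 801, 682 and 1039 CPM in RPOA-2 auxin, against 2077, 1307, 1704 and 1833 CPM in ethanol (log2 change -1.1 ± 0.177, adjusted p 0.0167 in edgeR). It had 1051, 1182 and 901 CPM in GRWD-1 auxin, against 2170, 2380 and 2457 CPM in ethanol (-1.16 ± 0.161, adjusted p 0.00539 in edgeR). Auxin and ethanol groups did not overlap, and calls were lost without RPOA-2 ethanol replicate 3, RPOA-2 auxin replicates 2 or 3 or GRWD-1 ethanol replicate 3. For rpl-7A, counting multimapping reads fractionally gave 1.43 times the protein-coding count, so part of its reads is shared with other loci. Without RPOA-2 ethanol replicate 2, 10 large-subunit and 7 small-subunit genes fell in RPOA-2, and with the replicate block 13 large-subunit genes fell and 3 rose in GRWD-1.

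rpl-3, whose yeast counterpart is escorted by that of GRWD-1, is named for that link. It had 2542, 2618, 2349 and 2498 CPM in RPOA-2 auxin, against 4917, 2736, 3859 and 4015 CPM in ethanol, and 8621, 9449 and 6987 CPM in GRWD-1 auxin, against 6346, 7554 and 7764 CPM in ethanol. RPOA-2 libraries were lower with auxin without overlap, and GRWD-1 libraries overlapped. The log2 change was -0.63 ± 0.181 (adjusted p 0.0819) in RPOA-2 and 0.21 ± 0.169 (adjusted p 0.571) in GRWD-1, by edgeR, so neither was called. The difference of -0.87 ± 0.294 had an unadjusted p of 0.00892 and an adjusted p of 1 in edgeR, and an adjusted p of 0.0102 in DESeq2.

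rpl-11.2, a member of a paralogous pair, rose in GRWD-1. It had 203, 125, 273 and 143 CPM in RPOA-2 auxin, against 110, 188, 91.5 and 86.4 CPM in ethanol (log2 change 0.63 ± 0.285, adjusted p 0.259). It had 258, 232 and 248 CPM in GRWD-1 auxin, against 67.1, 46.4 and 93.2 CPM in ethanol (1.84 ± 0.219, adjusted p 0.00309 in edgeR). The highest RPOA-2 ethanol value is that of replicate 2, the library with the highest sums of intestinal markers. Of 31 small-subunit genes, 0 were called in RPOA-2 and rps-12 and rps-20 fell in GRWD-1 (6 fell with the replicate block).

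Genes that build ribosomes showed mostly positive changes. Of 16 tested large-subunit assembly factors 13 had a log2 change above 0 in RPOA-2 and 16 in GRWD-1, with medians of 0.31 in RPOA-2 (0.19 without ethanol replicate 2) and 0.47 in GRWD-1. Over all genes tested 48.4% lay above 0 in RPOA-2 and 49.9% in GRWD-1. Another 13 of the 29 listed symbols were not found among the counted genes. Of the factors tested, 4 rose in GRWD-1 (8 with the replicate block), where 1.21% of all genes rose, and 0 were called in RPOA-2. The 4 were pro-1, lpd-7 and wdr-12, whose yeast counterparts act in pre-60S maturation, and eif-6, which keeps the new large subunit from joining the small one. Of the 6 GRWD-1 fits that left out 1 library, the call was lost in 6 for eif-6 and wdr-12, 4 for lpd-7 and 3 for pro-1. lpd-7 had 1093, 1245 and 943 CPM in GRWD-1 auxin, against 584, 639 and 628 CPM in ethanol (0.83 ± 0.157, adjusted p 0.0193 in edgeR), and 760 ± 44.4 CPM in RPOA-2 auxin and 548 ± 88.4 CPM in ethanol (SD, n = 4 each; 0.47 ± 0.125, adjusted p 0.0621). Libraries did not overlap in either strain. Of 22 small-subunit and nucleolar factors, 1 rose in GRWD-1, wdr-46 (11 with the replicate block, 1 falling), and 0 were called in RPOA-2, where their median was 0.22 (0.09 without ethanol replicate 2). The call of wdr-46 was lost in each of the 6 fits that left out 1 library. In RPOA-2 14 of the 22 lay above 0, and in GRWD-1 18 did. For this list 11 of 34 symbols were not found. Of 11 RNA polymerase I subunit genes, rpac-40 rose in RPOA-2 (log2 change 0.68 ± 0.162, adjusted p 0.0427) and had 0.77 ± 0.242 in GRWD-1 (adjusted p 0.113, or 0.0375 with the replicate block), by edgeR. The RPOA-2 call of rpac-40 was lost in each of the 8 fits that left out 1 library.

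Mitochondrial ribosomal proteins are made in the cytosol for the separate ribosomes of mitochondria. Of 70 tested in each strain, 3 rose and 0 fell in RPOA-2, where 2.56% of all genes rose, and 10 rose and 0 fell in GRWD-1 (27 rose with the replicate block), where 1.21% of all genes rose. Both strains shared the rises of mrpl-9 and mrps-5. Medians were 0.19 in RPOA-2 (0.11 without ethanol replicate 2) and 0.46 in GRWD-1, and 51 of 70 had the smaller change in RPOA-2, with 11 at an unadjusted p under 0.05 for the difference and 0 passing the adjustment. mrps-5 had 225, 225, 205 and 185 CPM in RPOA-2 auxin, against 152, 106, 143 and 146 CPM in ethanol (log2 change 0.62 ± 0.125, adjusted p 0.0255 in edgeR). It averaged 231 ± 7.15 CPM in GRWD-1 auxin and 120 ± 13.9 CPM in ethanol (SD, n = 3 each; 0.94 ± 0.148, adjusted p 0.00847 in edgeR). mrps-2 rose by log2 1.49 ± 0.177 in GRWD-1 (adjusted p 0.00309) and had 0.53 ± 0.182 in RPOA-2 (adjusted p 0.137), by edgeR. mrpl-45 was the reverse case, with 240, 234, 204 and 239 CPM in RPOA-2 auxin, against 148, 143, 138 and 171 CPM in ethanol (0.61 ± 0.099, adjusted p 0.0168 in edgeR), and a log2 change of 0.18 (adjusted p 0.571) in GRWD-1. Genes encoded by the mitochondrial genome itself had medians of -0.51 in RPOA-2 and -0.97 in GRWD-1, with 0 and 2 of 12 called, both lower.

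**Figure D4:**
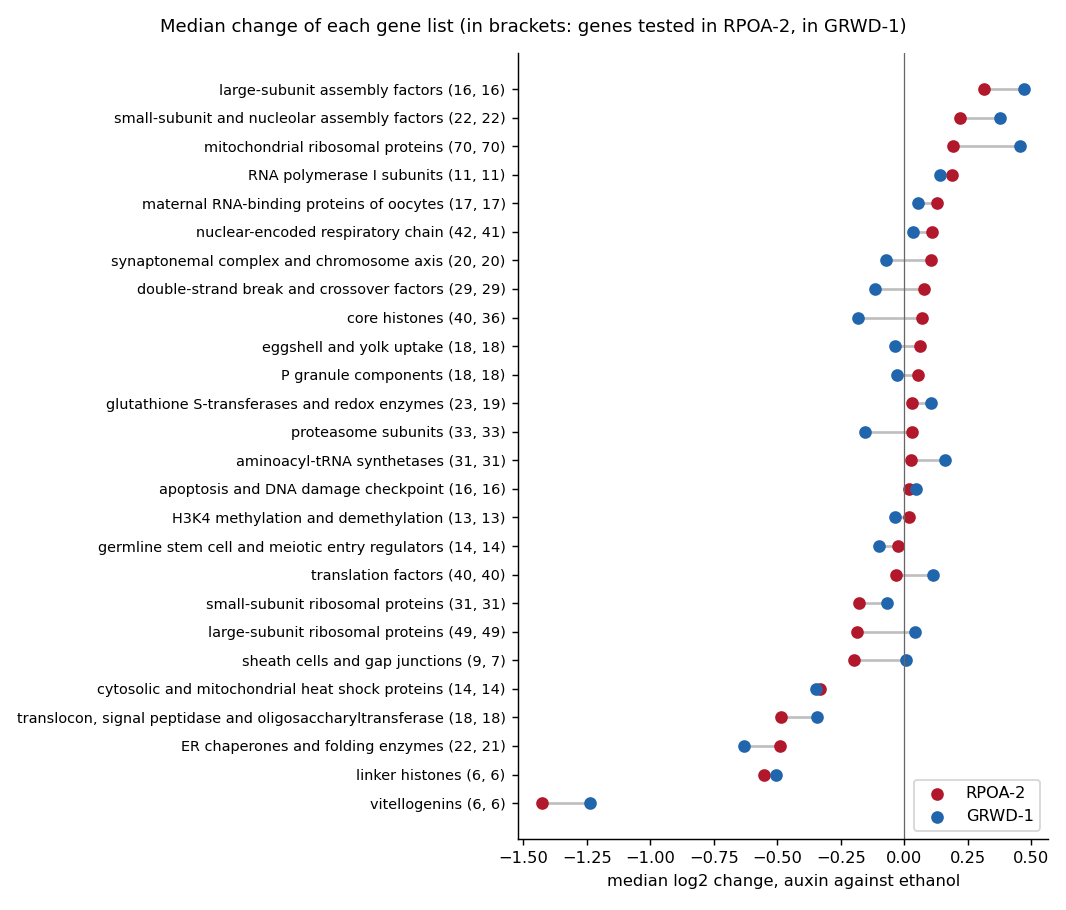
Median log2 change, auxin against ethanol, of each gene list with at least 5 genes tested in both strains, for RPOA-2 (red) and GRWD-1 (blue); numbers in brackets are genes tested. Assembly factors and mitochondrial ribosomal proteins lie at 0.19 to 0.47, ER lists at -0.34 to -0.63, and vitellogenins, with no member called, at -1.42 in RPOA-2 (-0.63 without ethanol replicate 2) and -1.24 in GRWD-1.

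Other genes called in both strains are given singly. vab-10, a spectraplakin that links actin to other filaments, had 749, 405, 405 and 772 CPM in RPOA-2 auxin, against 1090, 1164, 1041 and 1393 CPM in ethanol (log2 change -1.01 ± 0.224, adjusted p 0.0348 in edgeR). It averaged 441 ± 14.8 CPM in GRWD-1 auxin and 1476 ± 435 CPM in ethanol (SD, n = 3 each; -1.74 ± 0.202, adjusted p 0.00309 in edgeR). The heavy spectrin gene sma-1, the filamin gene fln-1 and the dystrophin gene dys-1 also fell in both, by log2 0.83 to 1.12 in RPOA-2 and 0.91 to 1.34 in GRWD-1. These 4 genes were singled out after their values were seen. They are expressed in somatic cells as well, and gonadal sheath and spermatheca markers summed to 99.0 to 216 CPM in RPOA-2 auxin, 161 to 454 in RPOA-2 ethanol, 32.7 to 86.9 in GRWD-1 auxin and 57.5 to 77.7 in GRWD-1 ethanol. The part of sheath RNA in these falls was not tested.

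Among the shared rises, npp-2, a nuclear pore component, had 336, 318, 308 and 335 CPM in RPOA-2 auxin, against 202, 170, 181 and 227 CPM in ethanol (log2 change 0.74 ± 0.102, adjusted p 0.0107 in edgeR). It had 370, 347 and 350 CPM in GRWD-1 auxin, against 210, 155 and 197 CPM in ethanol (0.92 ± 0.154, adjusted p 0.011 in edgeR). rae-1, an mRNA export factor, rose by log2 0.69 in RPOA-2 and 0.89 in GRWD-1. tos-1, known in worms as a reporter of alternative splicing, had 507, 451, 399 and 548 CPM in RPOA-2 auxin, against 185, 151, 210 and 342 CPM in ethanol (1.11 ± 0.218, adjusted p 0.0232 in edgeR). It had 1231, 1604 and 1536 CPM in GRWD-1 auxin, against 454, 665 and 534 CPM in ethanol (1.40 ± 0.184, adjusted p 0.00458 in edgeR). Its RPOA-2 call was lost without any 1 library other than ethanol replicates 2 or 4, and its GRWD-1 call without ethanol replicate 3. Fractional counting of multimapping reads gave 1.81 times as many, so tos-1 shares reads with other loci.

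The largest shared rises were of genes that are less well described. Y71F9AL.8 had 111, 120, 114 and 77.9 CPM in RPOA-2 auxin, against 26.1, 25.7, 21.8 and 19.9 CPM in ethanol (log2 change 2.17 ± 0.169, adjusted p 0.000482 in edgeR). It had 92.9, 89.6 and 78.7 CPM in GRWD-1 auxin, against 31.4, 43.5 and 37.3 CPM in ethanol (1.22 ± 0.186, adjusted p 0.00798 in edgeR). Y53G8AL.1 had 20.1 ± 4.66 CPM in RPOA-2 auxin and 4.79 ± 1.07 CPM in ethanol (SD, n = 4 each), and 46.8, 64.4 and 20.7 CPM in GRWD-1 auxin, against 3.38, 0 and 0 CPM in ethanol. The fitted log2 changes were 2.04 ± 0.319 (adjusted p 0.0155) and 5.44 ± 0.819 (adjusted p 0.0074), by edgeR, the second of which depends on the prior count because 2 libraries hold 0. The second was 10.68 without GRWD-1 ethanol replicate 1, which leaves ethanol at 0, and 4.82 at its lowest, with fractional counts. dyf-3, a gene of ciliated neurons in worms, rose by log2 1.36 in RPOA-2 and 1.74 in GRWD-1 at no more than 42.8 CPM in any library.

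The direct test of a difference between the 2 changes passed for 1 of 9495 genes (0.0105%), while 438 (4.61%) had an unadjusted p under 0.05. DESeq2 called 35. The gene was gpch-1 (chromosome III from 4408551 to 4412217, plus strand, WBcel235), with 234, 236, 214 and 227 CPM in RPOA-2 auxin, against 245, 215, 253 and 310 CPM in RPOA-2 ethanol. It had 95.2, 62.9 and 63.6 CPM in GRWD-1 auxin, against 236, 299 and 221 CPM in GRWD-1 ethanol. The GRWD-1 auxin libraries lie far under their ethanol libraries, and the RPOA-2 groups overlap. The log2 change was -0.17 ± 0.112 (adjusted p 0.476) in RPOA-2 and -1.77 ± 0.199 (adjusted p 0.00309) in GRWD-1, and the difference was 1.59 ± 0.239 (adjusted p 0.0348 in edgeR). The call of the difference was lost without RPOA-2 ethanol replicates 1 or 3, RPOA-2 auxin replicates 1, 3 or 4, GRWD-1 ethanol replicate 2 or GRWD-1 auxin replicates 2 or 3, with adjusted p of 0.0755 to 0.2 and log2 differences of 1.42 to 1.59. Without RPOA-2 ethanol replicate 2 it was 1.48 (adjusted p 0.0343). With fractional counts the call was lost as well, at 1.755 (adjusted p 0.0873 in edgeR). Within the range of library numbers that holds GRWD-1 and RPOA-2 replicate 4, the difference was 1.26. That fit has 1 RPOA-2 library a group, so only the size is given and whether the difference holds there was not tested.

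The 12 genes with the smallest p for a difference, gpch-1 included, comprised 9 called in GRWD-1 and 2 called in RPOA-2. In 5 the estimate was above 0 in RPOA-2 and below 0 in GRWD-1, and in 3 the reverse. Apart from gpch-1 none passed, and the next are given as values. mrps-17, a mitochondrial ribosomal protein gene, had 61.5, 88.0, 67.8 and 77.5 CPM in RPOA-2 auxin, against 94.9, 58.3, 85.3 and 91.7 CPM in ethanol, and 176, 162 and 141 CPM in GRWD-1 auxin, against 66.1, 66.9 and 55.1 CPM in ethanol. Auxin and ethanol libraries overlap in RPOA-2 and lie apart in GRWD-1. The difference was -1.53 ± 0.261 (adjusted p 0.0779 in edgeR). K02F3.12 had 189, 160, 151 and 162 CPM in RPOA-2 auxin, against 128, 106, 125 and 136 CPM in ethanol, and 103, 99.3 and 107 CPM in GRWD-1 auxin, against 156, 164 and 167 CPM in ethanol. Its auxin libraries were all higher than ethanol in RPOA-2 (log2 change 0.42, adjusted p 0.0598) and all lower in GRWD-1 (-0.66, adjusted p 0.0325), and its difference of 1.06 ± 0.192 had an adjusted p of 0.114 (0.0425 with the replicate block) in edgeR.

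lrpr-1 averaged 113 ± 8.08 CPM in RPOA-2 auxin and 132 ± 9.62 CPM in ethanol (SD, n = 4 each), and 58 ± 5.97 CPM in GRWD-1 auxin and 130 ± 6.55 CPM in ethanol (SD, n = 3 each; difference 0.92 ± 0.187, adjusted p 0.28 in edgeR). eif-3.I, a subunit of the initiation factor that loads mRNA on the small subunit, had 224, 214, 203 and 179 CPM in RPOA-2 auxin, against 230, 185, 228 and 245 CPM in ethanol, and 429, 540 and 420 CPM in GRWD-1 auxin, against 212, 266 and 266 CPM in ethanol (difference -1.03 ± 0.228, adjusted p 0.52). rps-20, a small-subunit protein gene, had 385, 404, 379 and 435 CPM in RPOA-2 auxin, against 598, 324, 453 and 441 CPM in ethanol, and 356, 279 and 226 CPM in GRWD-1 auxin, against 653, 835 and 820 CPM in ethanol (difference 1.23 ± 0.278, adjusted p 0.52). In these 3 genes the RPOA-2 groups overlap, and the GRWD-1 groups do not. The remaining 6 were tcer-1, F33H2.3, magu-1, Y48E1B.3, ham-3 and ceh-91, with differences of -1.32 to 1.32 (adjusted p 0.52 to 0.609).

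Of the 12 genes 6 lie on chromosome III, which also carries grwd-1 (from 5153464 to 5155436, plus strand). mrps-17 starts at 6431042, gpch-1 at 4408551, K02F3.12 at 856560 and magu-1 at 463925 on that chromosome, and ham-3 and ceh-91 lie farther along it. Over all genes tested an unadjusted p under 0.05 was found in 5.78% on chromosome III, 5.57% on I and 1.59% on X, and a p under 0.005 in 0.934% on III, 0.502% on I and 0.453% over all chromosomes. The X chromosome, which is largely silent in germ nuclei, had medians of -0.40 in RPOA-2 and -0.33 in GRWD-1. Of 888 genes on it tested in RPOA-2, 21 fell and 0 rose, where 1.22% of all genes fell and 2.56% rose. Of 663 tested in GRWD-1, 8 fell and 3 rose, where 1.48% of all genes fell and 1.21% rose. The GRWD-1 falls on X are thus near the share over all genes.

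**Figure D5:**
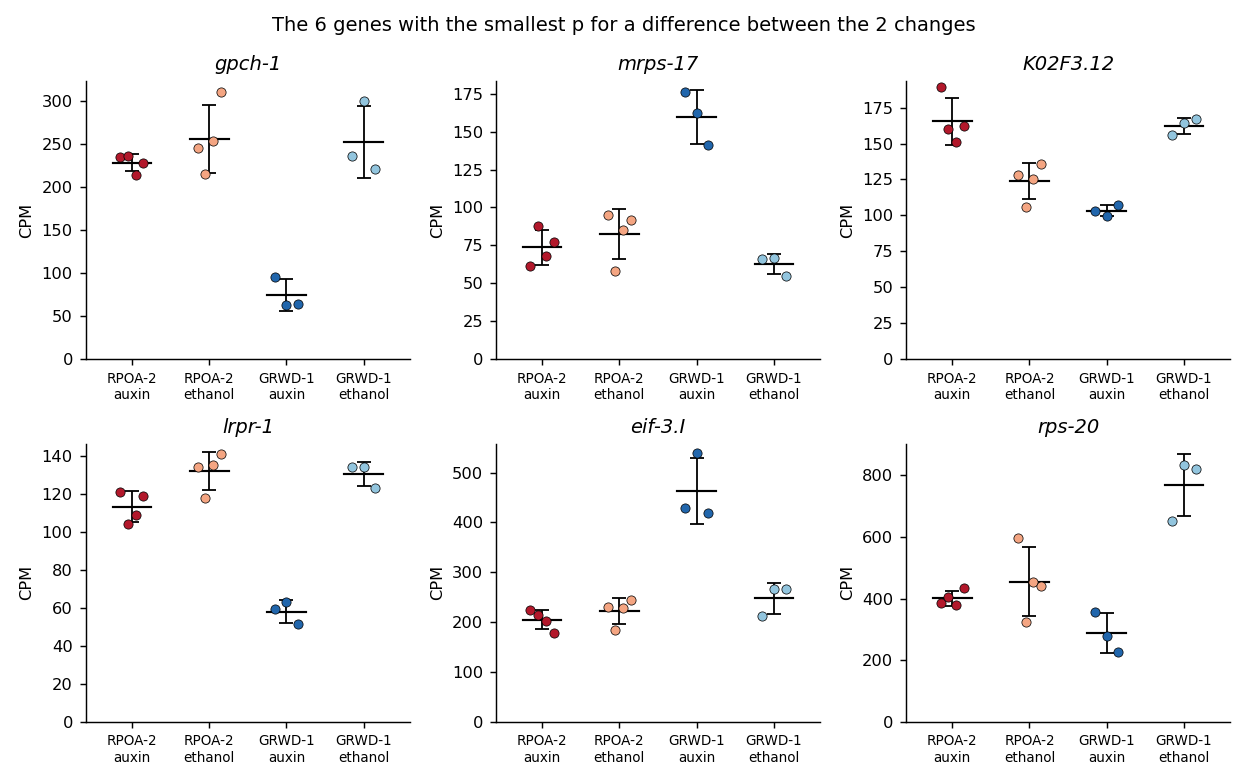
CPM of the 6 genes with the smallest p for a difference between the 2 changes, for each library (points) of the 4 groups, with the mean (line) and SD (bar) of n = 4 for RPOA-2 and n = 3 for GRWD-1. Within GRWD-1 the auxin libraries lie under the ethanol libraries for gpch-1, lrpr-1 and rps-20 and above them for mrps-17 and eif-3.I, and K02F3.12 is higher with auxin in RPOA-2 and lower with auxin in GRWD-1.

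Genes called in 1 strain with a log2 change under 0.2 in the other numbered 39 for RPOA-2 and 30 for GRWD-1, at 10 CPM or more. The RPOA-2 genes with the smallest adjusted p were F33H2.2, mrpl-45, his-67, Y48E1B.3, Y56A3A.2 and his-68, all rising by log2 0.53 to 0.86. Y48E1B.3 had 130, 113, 105 and 99.4 CPM in RPOA-2 auxin, against 56.7, 51.5, 74.4 and 65.2 CPM in ethanol (0.86 ± 0.143, adjusted p 0.0176 in edgeR), and 71.5, 64.4 and 61.1 CPM in GRWD-1 auxin, against 76.3, 79.5 and 62.4 CPM in ethanol (-0.15 ± 0.17, adjusted p 0.709). Its libraries separate in RPOA-2 and overlap in GRWD-1. The GRWD-1 genes were gpch-1, mrps-17, rps-20, C53H9.2, slc-30A5 and eea-1. C53H9.2 had 1112, 983 and 861 CPM in GRWD-1 auxin, against 467, 421 and 508 CPM in ethanol (1.08 ± 0.16, adjusted p 0.0074 in edgeR), and 384, 441, 405 and 299 CPM in RPOA-2 auxin, against 480, 223, 345 and 318 CPM in ethanol (0.17 ± 0.202, adjusted p 0.718). The zinc transporter gene slc-30A5 and eea-1, named for an early endosome protein, fell by log2 1.03 and 0.96 in GRWD-1. Of these 12 genes, the difference passed for gpch-1.

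Of 40 translation factors tested, 2 rose and 1 fell in RPOA-2 (2 and 4 without ethanol replicate 2) and 4 rose and 1 fell in GRWD-1 (10 and 5 with the replicate block), with 0 shared, and 10 of 41 had an unadjusted p under 0.05 for the difference, against 4.61% of all genes. The main fits called 3.78% of all genes in RPOA-2 and 2.69% in GRWD-1. inf-1, the helicase eIF4A, had 345, 444 and 313 CPM in GRWD-1 auxin, against 732, 1191 and 903 CPM in ethanol (log2 change -1.36 ± 0.205, adjusted p 0.0074 in edgeR), and 701, 609, 566 and 521 CPM in RPOA-2 auxin, against 951, 726, 808 and 784 CPM in ethanol (-0.45 ± 0.123, adjusted p 0.0725). Both strains were lower with auxin without overlap. eif-2A rose by log2 0.79 ± 0.0973 in RPOA-2 (adjusted p 0.0055) and had 0.46 ± 0.152 in GRWD-1 (adjusted p 0.133, or 0.0182 with the replicate block), by edgeR.

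Few genes of meiosis and oogenesis were called. Over all genes 3.78% were called in RPOA-2 and 2.69% in GRWD-1, so lists this short would hold few calls at those shares as well. The study's title names the H3K4me3 gradient of meiotic chromatin, and of the 13 tested genes for H3K4 methylation and demethylation 0 were called in either strain, with medians of 0.02 in RPOA-2 and -0.04 in GRWD-1. Of 20 genes of the synaptonemal complex and chromosome axis, syp-1 rose in RPOA-2, with 296, 286, 264 and 280 CPM in auxin, against 203, 193, 181 and 185 CPM in ethanol (log2 change 0.56 ± 0.083, adjusted p 0.0116 in edgeR), and it had 259, 249 and 241 CPM in GRWD-1 auxin, against 247, 193 and 143 CPM in ethanol (0.36 ± 0.186, adjusted p 0.329). Of 29 genes for double-strand breaks and crossovers, of 14 regulators of germline stem cells and of 17 maternal RNA-binding proteins, 0 were called in either strain. With the replicate block 3 of 13 H3K4 genes, 3 of 20 axis genes and 3 of 29 double-strand break genes were called in GRWD-1. So were 1 of 14 stem cell regulators and 4 of 17 maternal RNA-binding genes. Over all genes that fit called 975 of 6948, and the H3K4, axis and maternal lists lie above that share, each by few genes. Of 18 genes for eggshell and yolk uptake, egg-4 rose in RPOA-2 and cpg-3 fell in GRWD-1 in the main fits. The call of egg-4 was lost in each of the 8 fits that left out 1 library (adjusted p 0.0698 in edgeR without RPOA-2 ethanol replicate 2). That of cpg-3 was lost in 5 of 6 such fits.

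Among P granule genes prg-1, the Argonaute of the piRNA pathway, rose in RPOA-2 (938, 870, 813 and 745 CPM in auxin, against 627, 444, 512 and 556 CPM in ethanol, log2 change 0.65 ± 0.125, adjusted p 0.0207 in edgeR) and had 0.51 ± 0.16 in GRWD-1 (adjusted p 0.115, or 0.0115 with the replicate block). The helicase genes glh-2 and znfx-1 fell in GRWD-1 by log2 0.67 and 0.85 and had -0.05 and -0.15 in RPOA-2. Of the 6 GRWD-1 fits that left out 1 library, the call was lost in 6 for glh-2 and 5 for znfx-1. The checkpoint kinase gene atl-1 rose in RPOA-2 by log2 0.54 ± 0.111 (adjusted p 0.0286; lost in each of the 8 fits that left out 1 library) and had -0.21 ± 0.2 in GRWD-1 (adjusted p 0.639), by edgeR. The 6 vitellogenins, yolk protein genes of the intestine, were not called in either strain, and they fell in GRWD-1 with the replicate block. With 1 library left out their median lay between -4.21 and -0.63 in RPOA-2 and between -2.11 and -0.30 in GRWD-1. vit-6 had 1485, 610, 297 and 11131 CPM in RPOA-2 auxin, against 831, 19760, 2783 and 10257 CPM in ethanol, a spread within both groups.

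Redox genes were called in RPOA-2. gst-24, a glutathione S-transferase, had 46.8, 44.2, 56.8 and 25.3 CPM in RPOA-2 auxin, against 2.75, 8.36, 1.48 and 0 CPM in ethanol (log2 change 3.58 ± 0.599, adjusted p 0.0176 in edgeR). With 1 ethanol library at 0 the fitted change depends on the prior count, it was 4.69 without ethanol replicate 2, and its call was lost in 5 of the 8 fits that left out 1 library. In GRWD-1 it had 43.9, 11.8 and 46.2 CPM in auxin, against 11.6, 2.16 and 20.3 CPM in ethanol (1.59 ± 0.637, adjusted p 0.215, or 0.00347 with the replicate block). The RPOA-2 groups do not overlap, and GRWD-1 auxin replicate 2 lies among the ethanol values. gcs-1, which makes the first step of glutathione synthesis, rose by log2 0.58 ± 0.1 in RPOA-2 (adjusted p 0.018) and had 0.67 ± 0.195 in GRWD-1 (adjusted p 0.0881, or 0.0149 with the replicate block), by edgeR. The differences did not pass for either gene (adjusted p 1), and of the 23 listed redox genes tested in RPOA-2 and 19 in GRWD-1 no other was called. Among all genes 3.78% were called in RPOA-2 and 2.69% in GRWD-1.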

How the data were processed

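RNA-seq of dissected gonads was read from 2 deposited tables. The first holds counts per protein-coding gene (19985 genes), and the second holds estimated counts in which the authors divided multimapping reads fractionally, used here for rRNA and spacers and rounded to whole numbers. Per the submitters' processing notes the tools were Trim Galore 0.6.10, HISAT2 2.2.1, Picard and featureCounts 2.0.6 with build WBcel235; their order and the strand setting are not given in the sources used here. Per the labels, total RNA was made into stranded libraries with PCR, and no molecular identifiers are named.

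Each strain was fitted separately in edgeR 4.0.16 (R 4.3.3): genes with low counts were removed by filterByExpr, libraries were scaled by TMM, and auxin was tested against ethanol by the quasi-likelihood F test with Benjamini-Hochberg adjustment (threshold 0.05). The SE is the absolute log2 change divided by the square root of F. The difference of changes, RPOA-2 minus GRWD-1, came from 1 fit of all 14 libraries, and CPM are scaled within each strain, so levels are not compared between strains. Spacers and rRNA were added to the same genes with TMM factors of protein-coding genes. Ratios of rRNA features were compared by exact two-sided permutation tests (SciPy 1.17.1). On simulated counts the difference test recovered 17% of genes with a log2 difference of 1 and 75% of those with 2. The RPOA-2 test recovered 71.5% of log2 changes of 1 and 94% of 2, and the GRWD-1 test 52% and 89%. A difference that did not pass therefore does not show that 2 changes are equal.

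Genes named are the 2 tagged genes, the 12 largest shared rises and falls with a mean of at least 10 CPM, the 12 smallest p for a difference, the 6 most significant genes called in 1 strain with an absolute log2 change under 0.2 in the other, and called members of each gene list (up to 4, or its most abundant member). rpl-3 and other genes outside that rule were added after their values were seen. The members and lists were chosen with earlier results of these data known. Same-numbered auxin and ethanol libraries had correlated deviations in all 3 GRWD-1 pairs (0.432, 0.47 and 0.376) and so were treated as paired in an alternative fit. Alternatives were DESeq2 1.42.0, other scalings and filters, fractional counts, the replicate block, the range of library numbers and each library left out. RPOA-2 replicates 1 to 3 carry library numbers of another range than the other libraries, and no label names a batch. For protein-coding genes strain and number range largely cannot be told apart. For spacers and rRNA, counted without RPOA-2 replicate 4, they cannot be told apart at all. No 2 libraries were identical.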

Additional observations from a re-analysis of the deposited data

Results flagged for a closer look

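In 12 of 208 groups of 4 RPOA-2 libraries (5.77%) 1 library lay far from the other 3, where chance gives about 1 in 20 groups. RPOA-2 ethanol replicate 2 was the highest of its group for pdi-2 (260 CPM) and for the summed markers of sperm (47.7 CPM), of gonadal sheath and spermatheca (454 CPM) and of body wall muscle (2300 CPM), and the lowest for Y57G11C.51 (64.1 CPM). RPOA-2 ethanol replicate 1 was the highest for hil-2 (188 CPM) and the lowest for his-67 (1260 CPM). RPOA-2 auxin replicate 1 was the lowest for pro-1 (74.5 CPM) and the highest for atp-1 (1464 CPM), and RPOA-2 auxin replicate 3 was the lowest for mrpl-45 (204 CPM). RPOA-2 auxin replicate 4 was the highest for vit-6 (11131 CPM) and for summed intestinal markers (21788 CPM).

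Differences between the 2 depletions, each as the log2 change in RPOA-2 minus that in GRWD-1, passed the direct edgeR test for gpch-1 (1.590), 5ETS (-3.058), ITS1 (-2.684) and 3ETS (-2.645). The ratio of 26S to 18S differed by 0.909 and the ratio of ITS2 to ITS1 by 2.398. Both ratios were higher with auxin in RPOA-2 and lower with auxin in GRWD-1 without overlap, and the difference between the strains was not tested.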

How the results depend on the processing

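Genes called in RPOA-2 numbered 603 with DESeq2, 136 with all 4 groups in one fit, 33 with fractional counts and 137 with replicates 1 to 3, and 7 to 219 with 1 library left out. Genes called in GRWD-1 numbered 455 with DESeq2, 303 with a mean of at least 50 counts, 975 with the replicate block and 84 with fractional counts, and 26 to 125 with 1 library left out. Genes called in both in the same direction numbered 174 with DESeq2, 108 with total counts, 97 without a filter, 108 with a mean of at least 50 counts, 156 with the replicate block, 7 with fractional counts and 37 with RPOA-2 replicates 1 to 3, and 5 to 64 with 1 library left out. Genes whose change differs numbered 35 with DESeq2, 3 with RLE size factors, 5 with total counts, 2 without a filter, 6 with a mean of at least 50 counts and 2 with the replicate block. By edgeR they numbered 0 with fractional counts (369 at an unadjusted p under 0.05) and 0 to 2 with 1 library left out. Differences with 1 library left out were -3.359 to -2.795 for 5ETS, -2.969 to -2.356 for ITS1 and -2.922 to -2.409 for 3ETS. In GRWD-1, scaling to total counts turned the direction of 5ETS (1.049), ITS1 (0.528), 3ETS (0.952) and 18S (0.099), and scaling to all counts other than rRNA that of 5ETS (0.190) and 3ETS (0.089). The ITS2 difference, not called, was -0.673 to 0.012 with 1 library left out. No called value of a gene taken by the naming rule, called spacer change or called spacer difference changed direction under the alternatives run. The other called genes were not checked for this. The median of large-subunit ribosomal proteins in GRWD-1 lay between -0.05 and 0.12. The RPOA-2 numbers do not pair the libraries (correlations 0.19, -0.148, 0.316 and 0.418), and with that block 268 genes were called. Higher calls made up 46.4% of RPOA-2 calls without a filter, against 67.8%. The causes were not tested. A library left alone in its group is assumed to vary like the others. Depth limits genes near 3 counts, 0.352 to 1.90 CPM.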
